A study of Mus musculus with 8 samples.

Results

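Circadian clock genes were followed through liver and eWAT (epididymal white adipose tissue) of mice with and without Crtc1, a CREB coactivator. They were chosen by gene symbol, and are 10 of the 19348 genes in the deposited tables. Arntl, Clock, Npas2 and Cry1 were taken as the morning arm, and Per1, Per2, Per3, Nr1d1, Nr1d2 and Dbp as the evening arm. RNA-seq was carried out on male C57BL/6 mice aged 12 weeks that had fasted for 16 h. Mice labelled Crtc1-/- carried a whole-body deletion made with CRISPR/Cas9 guides to exons 2 and 4, and mice labelled Crtc1+/+ were wild-type littermates. All mice had normal chow and a cycle of 12 h of light and 12 h of darkness. Each genotype had 2 libraries in each tissue, 8 in all, and the labels do not say whether a liver and an eWAT library came from the same mouse. The study recorded energy expenditure by day and by night, but the time of day at which these tissues were taken is not given in the sources used here.

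The mammalian clock is a feedback loop of transcription. ARNTL pairs with CLOCK or NPAS2, binds E-boxes and activates the Per and Cry genes, whose proteins return to the nucleus and block the pair that made them. In a further loop the repressors NR1D1 and NR1D2 and the activators of the ROR family compete for RORE sites in the Arntl gene, while DBP acts at D-boxes in competition with the repressor NFIL3. In liver and adipose tissue of mice Arntl and the evening genes run close to antiphase, and feeding, fasting and glucocorticoids can shift these peripheral clocks. CRTC proteins are coactivators of CREB, and Per1 is a known CREB target gene.

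Promoter sequences were taken from RefSeq on GRCm38.p6, from 250 bases before to 50 bases after a gene's start, and existed for 9 of the 10 genes, in 13 windows. Both strands were searched for the E-box CACGTG, the E-prime box CACGTT, the D-boxes TTATGTAA and TTACGTAA, the ROREs TAGGTCA and TGGGTCA, the CRE TGACGTCA and the shorter CRE core TGACG, which lies within the CRE. Below are the windows of the genes on which the comparisons turn, with each match in capitals. Arntl (the later of its windows, chr7:113207261-113207560, plus strand) held a RORE at bases 31 to 37 after the start. Per3 (chr4:151044616-151044915, minus strand) held a pair of D-boxes, from -205 to -198 and from -158 to -151. Per1 (the earlier of its windows, chr11:69098699-69098998, plus strand) held an E-box from -166 to -161 and a CRE core from -246 to -242. Nr1d1 (chr11:98775328-98775627, minus strand) held an E-prime box, read here as AACGTG, from -28 to -23. The end of this window was not found in a transcript of the gene, and nor was that of the later Per1 window. Positions relative to the start are therefore less certain in these windows.
Arntl: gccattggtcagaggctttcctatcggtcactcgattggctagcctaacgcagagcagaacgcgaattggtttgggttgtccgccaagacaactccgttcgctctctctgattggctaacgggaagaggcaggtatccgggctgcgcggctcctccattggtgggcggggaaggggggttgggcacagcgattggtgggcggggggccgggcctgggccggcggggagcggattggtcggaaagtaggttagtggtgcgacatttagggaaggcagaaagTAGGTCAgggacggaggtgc
Per3: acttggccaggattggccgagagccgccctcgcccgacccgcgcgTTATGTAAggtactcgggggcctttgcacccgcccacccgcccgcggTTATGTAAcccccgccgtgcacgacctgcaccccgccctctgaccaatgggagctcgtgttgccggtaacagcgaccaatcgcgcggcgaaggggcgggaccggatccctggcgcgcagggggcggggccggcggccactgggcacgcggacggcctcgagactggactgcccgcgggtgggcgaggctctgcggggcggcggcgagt
Per1: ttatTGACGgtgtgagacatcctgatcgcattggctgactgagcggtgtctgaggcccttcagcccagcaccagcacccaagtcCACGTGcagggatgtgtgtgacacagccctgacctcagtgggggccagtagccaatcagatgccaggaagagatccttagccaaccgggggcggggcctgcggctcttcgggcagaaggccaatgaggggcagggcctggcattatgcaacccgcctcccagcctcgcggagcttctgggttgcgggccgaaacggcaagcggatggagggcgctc
Nr1d1: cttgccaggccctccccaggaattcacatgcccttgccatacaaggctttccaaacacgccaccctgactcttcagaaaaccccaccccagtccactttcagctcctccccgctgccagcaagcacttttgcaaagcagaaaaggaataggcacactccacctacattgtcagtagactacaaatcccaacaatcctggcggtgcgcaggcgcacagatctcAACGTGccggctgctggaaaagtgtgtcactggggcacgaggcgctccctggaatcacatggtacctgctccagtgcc

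Of all 32851 promoter windows of this kind, 7.15% held an E-box, 4.68% an E-prime box, 1.06% a D-box, 6.45% a RORE, 1.79% a full CRE and 20.8% a CRE core. Among the clock genes with a window, which are all but Per2, the D-box was matched only in Per3 and the RORE only in Arntl. Cry1 held an E-box from -60 to -55, an E-prime box from -79 to -74 and a CRE core from -8 to -4, and the other Per1 window held a CRE core from -132 to -128. None of these letters was found in the windows of Clock, Npas2, Nr1d2 and Dbp. A match describes the letters in a window and is not a bound site.

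Library totals were 16560070 to 19721464 counts, so 3 counts, taken as the floor, corresponded to 0.152 to 0.181 CPM, counts scaled to the library total. Levels below are CPM after TMM scaling within a tissue, in the order of replicates 1 and 2. Crtc1 itself was not lower in the libraries labelled Crtc1-/-. It was at 22.1 and 17.98 CPM in the liver libraries labelled Crtc1-/- against 11.7 and 9.87 in liver labelled Crtc1+/+, and at 58.5 and 33.6 against 32.6 and 33.7 in eWAT. A gene total covers all exons, so it cannot check a deletion from exon 2 to exon 4, and the genotypes are given as labelled.

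The eWAT libraries differed in what tissue they held. In the 2 labelled Crtc1+/+, 14 epididymis markers took 7.66% and 8.93% of counts, with Gpx5 the most abundant at 40800 and 50640 CPM, against 0.00234% and 0.00113% in the 2 labelled Crtc1-/-, where 5 and 4 of these markers were at 0. The 12 adipocyte markers took 0.250% and 0.407% of the same Crtc1+/+ libraries, versus 4.32% and 2.09% of the Crtc1-/- ones, and none was at 0. The 13 hepatocyte markers took 12.0% in eWAT labelled Crtc1-/- replicate 2 and at most 0.859% in the other eWAT libraries, against 22.0% to 25.7% in liver, with none at 0. Epididymis markers therefore moved with the genotype label in eWAT, where epididymal tissue and genotype cannot be told apart. In the liver libraries the epididymis markers took at most 0.00805% and the adipocyte markers at most 0.0103%.

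**Figure D1:**
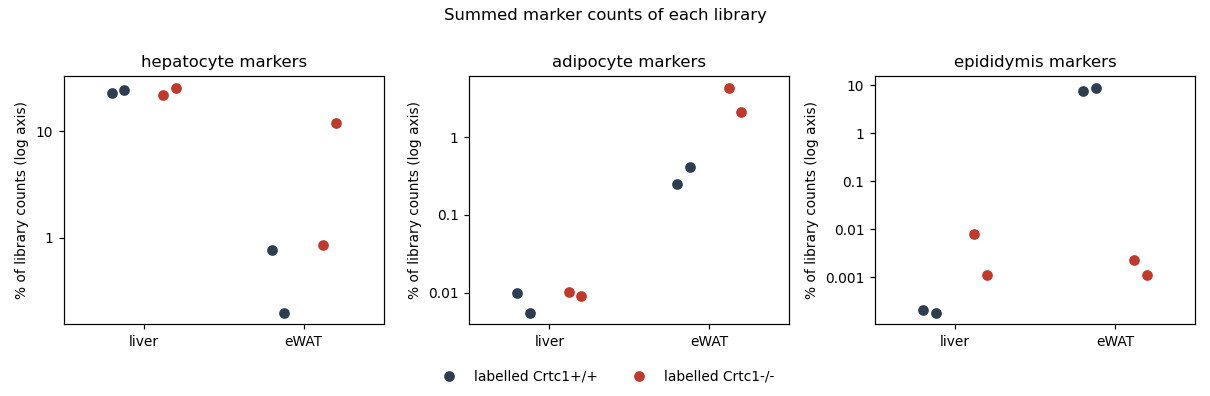
Summed counts of the hepatocyte, adipocyte and epididymis markers as a percentage of each library's counts, on log axes, for liver and eWAT. Each point is 1 library. Both eWAT libraries labelled Crtc1+/+ lie at 7.66% and 8.93% for epididymis markers, and 1 eWAT library labelled Crtc1-/- lies at 12.0% for hepatocyte markers.

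In liver, Arntl was lower and Dbp and Per3 were higher in mice labelled Crtc1-/-, while Clock, Cry1, Per1 and Nr1d1 lay at similar levels in both genotypes. Arntl was at 0.223 of its level in Crtc1+/+ liver, Dbp was 3.69-fold higher and Per3 3.18-fold higher. These 3 of the 9 genes tested passed the DEG threshold (a log2 fold change above 1 in size and p under 0.01 before adjustment), beside 4.27% of the 11707 genes tested, 2 of them higher (beside 2.84%) and 1 lower (beside 1.43%). By edgeR's quasi-likelihood test with Benjamini-Hochberg adjustment none of the 9 had an adjusted p under 0.05, beside 0.0854% of all genes, while 4 had an unadjusted p under 0.05, beside 17.3%. With DESeq2 the same 3 genes had an adjusted p under 0.05, beside 311 of the 11707 genes. With limma on FPKM none of the 9 had, and nor did any other gene tested. Genotypes did not overlap for 4 of the 9, beside 52.1% of all genes. The median log2 fold change was 0.16 over the 9 genes and 0.00 over all genes.

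The activators of the loop come first. Arntl (chr7:113207465-113314126), the shared partner of CLOCK and NPAS2, was at 0.681 and 0.992 CPM in the liver libraries labelled Crtc1-/-, versus 2.98 and 4.51 CPM in those labelled Crtc1+/+. These levels rested on 13, 17, 58 and 86 reads, and both Crtc1-/- libraries lay below both Crtc1+/+ libraries. The log2 fold change was -2.16 (SE 0.45, edgeR adjusted p = 0.121).

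Clock (chr5:76209868-76304792), which encodes the partner of ARNTL, was at 5.40 and 7.65 CPM against 5.19 and 6.51 CPM, and its groups overlapped. Its log2 fold change was 0.16 (SE 0.32, edgeR adjusted p = 0.829). Npas2 (chr1:39193731-39363236), a paralog of Clock, had 2 and 2 reads in the liver libraries labelled Crtc1-/-, versus 4 and 5 reads in the Crtc1+/+ pair, close to the floor, and did not pass the filter on low counts. No difference in Npas2 could be read at this depth.

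Cry1 (chr10:85131700-85185064), a repressor of the activating pair that peaks late in the cycle, was at 2.94 and 5.84 CPM in the liver libraries labelled Crtc1-/-, versus 3.03 and 7.03 CPM in those labelled Crtc1+/+. Replicate 2 was the higher in both genotypes, and the groups overlapped, with a log2 fold change of -0.20 (SE 0.48, edgeR adjusted p = 0.854).

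Among the Per repressors, Per3 alone passed the DEG threshold in liver. Per3 (chr4:151003652-151044665) was at 8.54 and 15.1 CPM against 3.18 and 4.25 CPM, with both Crtc1-/- libraries above both Crtc1+/+ libraries. Its log2 fold change was 1.67 (SE 0.36, edgeR adjusted p = 0.121). Per1 (chr11:69095217-69109960), the Per gene that responds fastest to outside signals, was at 28.6 and 42.4 CPM against 34.7 and 36.5 CPM, so its Crtc1-/- libraries lay on either side of the Crtc1+/+ pair. Per2 (chr1:91415982-91459324) was at 16.0 and 35.0 CPM against 15.2 and 19.1 CPM, also overlapping. The log2 fold changes of Per1 and Per2 were -0.01 (SE 0.27, edgeR adjusted p = 0.993) and 0.57 (SE 0.36, edgeR adjusted p = 0.430), and that of Per1 changed sign under other scalings (0.08 with upper-quartile and 0.05 with library-size scaling).

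Neither of the nuclear receptors that repress Arntl passed the DEG threshold in liver. Nr1d1 (chr11:98767932-98775333) was at 112 and 54.4 CPM in the liver libraries labelled Crtc1-/-, versus 84.8 and 82.8 CPM in those labelled Crtc1+/+, so its groups overlapped, and the ratio of its means was 0.991. Nr1d2 (chr14:18204054-18239127) was at 7.76 and 7.18 CPM against 2.93 and 5.25 CPM, with the Crtc1-/- libraries higher. Nr1d2 had a log2 fold change of 0.87 (SE 0.36, edgeR adjusted p = 0.264). Nr1d1 had a log2 fold change of -0.01 (SE 0.34, edgeR adjusted p = 0.988), which was 0.06 with upper-quartile and 0.04 with library-size scaling.

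Dbp (chr7:45705088-45710203), the D-box activator that is a direct output of the loop, was at 204 and 109 CPM in the liver libraries labelled Crtc1-/-, versus 33.4 and 51.3 CPM in those labelled Crtc1+/+. Both Crtc1-/- libraries lay above both Crtc1+/+ libraries, and the means were 156 ± 67.1 and 42.4 ± 12.7 CPM (SD, n = 2). The log2 fold change of 1.88 (SE 0.36) was the largest upward difference on this scale among the 9 genes, with an adjusted p of 0.0988 by edgeR.

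Leaving out single liver libraries changed which clock genes passed the DEG threshold, and the share of all genes passing also changed widely. Each such fit left 1 library in a group, so only effect sizes are given. The log2 fold change stayed between -2.45 and -1.84 for Arntl, between 1.19 and 2.03 for Per3 and between 1.37 and 2.26 for Dbp.

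**Figure D2:**
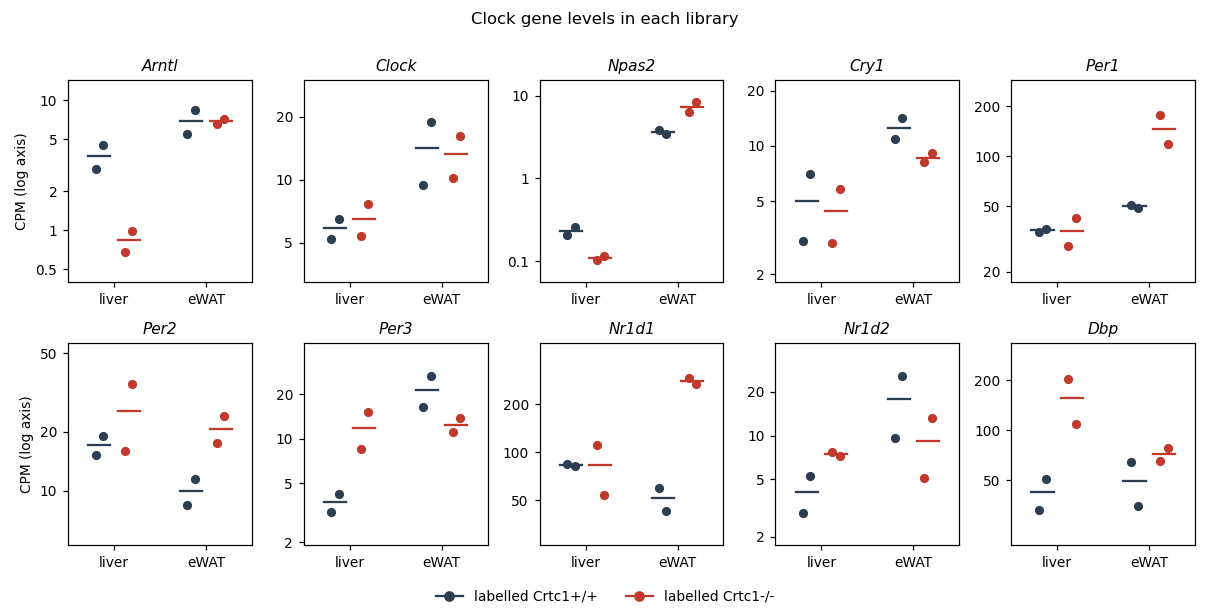
CPM of each clock gene in each library, on log axes that differ between panels, after TMM scaling within a tissue. Each point is 1 library, with replicate 1 on the left of each pair, and a bar marks the mean of 2. In liver the Crtc1-/- points of Arntl lie below, and those of Per3 and Dbp above, both Crtc1+/+ points, and in eWAT the Crtc1-/- points of Per1 and Nr1d1 lie above them.

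In eWAT, Nr1d1 and Per1 rose in mice labelled Crtc1-/-, Nr1d1 by 5.46-fold and Per1 by 2.95-fold, while the Arntl values of the genotypes overlapped. These 2 of the 10 genes passed the DEG threshold, beside 15.9% of the 15391 genes tested, and had an adjusted p under 0.05, beside 12.2%. Genes past the DEG threshold were 8.37% higher and 7.54% lower over the whole table, and both clock genes were higher. In all, 3 of the 10 had an unadjusted p under 0.05, beside 33.3%, and the genotypes did not overlap for 7 of the 10, beside 66.6%. These shares lay near those of all genes. The median log2 fold change was 0.26 over the 10 genes and -0.05 over all genes, and the latter became -0.25 under upper-quartile and -0.35 under library-size scaling. In bulk tissue, fewer cells of a type and less RNA per cell cannot be told apart.

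None of the activators passed the DEG threshold in eWAT. Arntl was at 6.54 and 7.22 CPM in the eWAT libraries labelled Crtc1-/-, versus 5.49 and 8.45 CPM in those labelled Crtc1+/+. Its Crtc1-/- values lay between the Crtc1+/+ values, and its log2 fold change was -0.02 (SE 0.48, edgeR adjusted p = 0.980). Clock was at 10.2 and 16.3 CPM against 9.44 and 18.8 CPM, and replicate 2 was the higher in both genotypes. Npas2, close to the floor in liver, was at 6.43 and 8.33 CPM in the eWAT libraries labelled Crtc1-/-, versus 3.81 and 3.48 CPM in those labelled Crtc1+/+. Its groups did not overlap, and its log2 fold change was 1.02 (SE 0.49, edgeR adjusted p = 0.215).

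Cry1 was at 8.14 and 9.10 CPM in the eWAT libraries labelled Crtc1-/-, versus 10.9 and 14.1 CPM in those labelled Crtc1+/+. The Crtc1-/- values were the lower, without overlap, and the log2 fold change was -0.54 (SE 0.39, edgeR adjusted p = 0.373).

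Of the 3 Per genes, Per1 alone had an adjusted p under 0.05 by edgeR. Its call held with DESeq2, without a filter and at a mean count of at least 50. It was lost with either limma fit, with upper-quartile or library-size scaling and in the replicate block, which called no gene. Per1 was at 176 and 118 CPM in the eWAT libraries labelled Crtc1-/-, versus 50.9 and 48.9 CPM in those labelled Crtc1+/+. Both Crtc1-/- libraries lay far above a tight Crtc1+/+ pair, and the log2 fold change was 1.56 (SE 0.32, edgeR adjusted p = 0.0434). Per2 was at 17.5 and 24.02 CPM against 8.53 and 11.5 CPM, higher without overlap, with a log2 fold change of 1.05 (SE 0.39, edgeR adjusted p = 0.140). Per3 was at 11.1 and 13.8 CPM against 16.4 and 26.5 CPM, which placed its Crtc1-/- libraries below the Crtc1+/+ pair. The log2 fold change of Per3 was -0.79 (SE 0.41, edgeR adjusted p = 0.235).

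Nr1d1 was at 294 and 268 CPM in the eWAT libraries labelled Crtc1-/-, versus 59.8 and 43.2 CPM in those labelled Crtc1+/+, with means of 281 ± 18.3 and 51.5 ± 11.8 CPM (SD, n = 2). No other clock gene differed by as much in either tissue, and its log2 fold change was 2.45 (SE 0.33, edgeR adjusted p = 0.0215). Nr1d2 was at 5.11 and 13.3 CPM against 9.63 and 25.98 CPM, so its groups overlapped, and its log2 fold change was -0.96 (SE 0.71, edgeR adjusted p = 0.380). Dbp was at 65.3 and 78.2 CPM against 64.2 and 35.2 CPM, and its lowest Crtc1-/- value was close to the highest Crtc1+/+ value. The log2 fold change of Dbp in eWAT was 0.53 (SE 0.38, edgeR adjusted p = 0.364).

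Leaving out single eWAT libraries left 1 library in a group, so only effect sizes are given. Both genes lost their call in some of these fits. Without Crtc1-/- replicate 2, the library that carried hepatocyte markers, the log2 fold change was 2.49 for Nr1d1 and 1.79 for Per1. Without Crtc1-/- replicate 1 they were 2.39 and 1.25. Without Crtc1+/+ replicate 1 they were 2.71 and 1.58, and without Crtc1+/+ replicate 2 they were 2.26 and 1.55. The epididymis markers separated the genotypes in all 4 libraries, and their part in these differences was not tested. Of the 8 immediate early genes of handling, the summed share was 0.0559% and 0.0380% in eWAT labelled Crtc1-/- against 0.0186% and 0.0278% in eWAT labelled Crtc1+/+, with none at 0 and with Dusp1 at 168 and 205 CPM against 14.4 and 7.57 CPM. In liver the summed share of this list was 0.00932% and 0.0114% in Crtc1-/- against 0.00590% and 0.00767% in Crtc1+/+, also higher without overlap. Per1 moved in the same direction as this list in eWAT. The part of the list in the results of either tissue was not tested.

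The reads of Nr1d1 and Dbp are uncertain, because each gene overlaps a neighbour on the other strand and the strand setting of the counting is not given in the sources used here. Nr1d1 shares 263 exon bases with Thra, a thyroid hormone receptor gene, and Dbp shares 539 with Sphk2, a sphingosine kinase gene. The counts of Nr1d1 and Dbp were not whole numbers, while the sum of each pair was whole in all 8 libraries, and the counts of the other 8 clock genes were whole. Thra was at 206 and 162 CPM in the eWAT libraries labelled Crtc1-/-, versus 64.3 and 39.4 CPM in those labelled Crtc1+/+, with a log2 fold change of 1.83 (SE 0.37, edgeR adjusted p = 0.0419). Both genes of that pair therefore rose in eWAT, and Nr1d1 took 58.8% and 62.3% of their joint counts against 48.2% and 52.3%.

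Sphk2 did not follow Dbp in liver. Its level was 46.3 and 29.5 CPM in the libraries labelled Crtc1-/-, versus 67.3 and 46.4 CPM in those labelled Crtc1+/+, with a log2 fold change of -0.58 (SE 0.31, edgeR adjusted p = 0.350). Dbp took 81.5% and 78.6% of the joint counts of this pair against 33.2% and 52.5%.

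**Figure D3:**
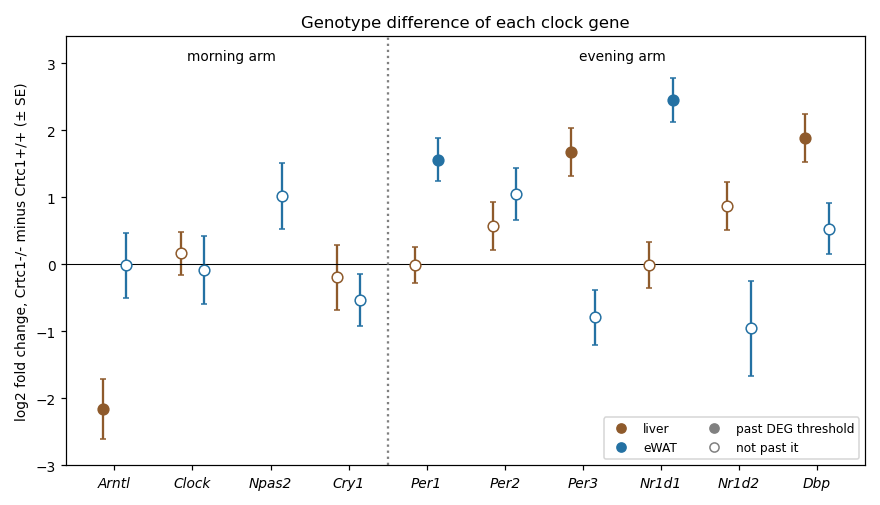
Log2 fold change of each clock gene, Crtc1-/- minus Crtc1+/+, from edgeR in liver and in eWAT, with bars of ± 1 standard error. Filled points passed the DEG threshold, and Npas2 was not tested in liver. Per3 lies at 1.67 in liver and at -0.79 in eWAT, and Nr1d1 at -0.01 and 2.45.

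The genotype difference was then compared between the tissues, as the difference in eWAT minus the difference in liver in a fit of all 8 libraries. Per3 had a contrast of -2.52 on the log2 scale (SE 0.56, edgeR adjusted p = 0.0452), with both Crtc1-/- libraries above the Crtc1+/+ pair in liver and below it in eWAT. By edgeR it was 1 of the 10 genes with an adjusted p under 0.05, beside 6.94% of the 15587 genes tested, so the share lay near that of all genes. Those 10 include Npas2, whose contrast is not read. Nr1d1 came to 2.37 (SE 0.56, edgeR adjusted p = 0.0523), Arntl to 2.08 (SE 0.63, edgeR adjusted p = 0.0929) and Per1 to 1.47 (SE 0.38, edgeR adjusted p = 0.0649). Which genes were called depended on the method. With DESeq2 they were Nr1d1, Per1 and Per3. With limma on log2(FPKM + 1) and on log2(FPKM + 0.1) they were Nr1d1 and Arntl, with Npas2 left out. Per3 lost its call with limma, at -1.03 (limma adjusted p = 0.126) and -1.57 (limma adjusted p = 0.138). By edgeR the call for Per3 held without either eWAT library labelled Crtc1-/-, and was lost without any 1 of the 4 liver libraries or either eWAT library labelled Crtc1+/+, with values from -2.86 to -2.06.

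The remaining contrasts were 0.42 for Per2, -1.43 for Dbp, -1.85 for Nr1d2, -0.40 for Cry1 and -0.30 for Clock, with adjusted p between 0.211 and 0.816 by edgeR. The contrast tests the size of the difference, and the eWAT difference of Per3 taken alone was not called. Npas2 entered this fit only through its eWAT counts, so its contrast is not read.

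Within each library the mean log2 CPM of the morning arm minus that of the evening arm gave a value that does not depend on scaling between libraries. It was -4.53 and -4.10 in the liver libraries labelled Crtc1-/-, versus -2.97 and -2.76 in those labelled Crtc1+/+, a shift of -1.45 against a replicate SD of 0.24. In eWAT it was -2.32 and -2.26 against -1.88 and -1.61, a shift of -0.55 against a replicate SD of 0.14. The value was the lower in Crtc1-/- in both tissues, and the groups did not overlap in either. Taking Arntl alone as the morning arm gave -2.80 in liver.

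The median log2 fold change of the morning arm was -0.20 in liver (3 genes tested) and -0.06 in eWAT (4 genes). That of the evening arm was 0.72 in liver and 0.79 in eWAT, with 4 of 6 genes higher and 2 lower in each tissue. The lower ones were Per1 and Nr1d1 in liver, both at -0.01, and Per3 and Nr1d2 in eWAT.

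Ratios of reads within a library, chosen after their values were seen, show how the balance of single genes differed. Liver labelled Crtc1-/- had 12.5 and 15.2 Per3 reads for each Arntl read, and liver labelled Crtc1+/+ had 1.07 and 0.942. In eWAT the ratio was 1.69 and 1.90 against 2.98 and 3.13, so the order of the genotypes was opposite to that in liver. Dbp had 299 and 110 reads for each Arntl read in liver labelled Crtc1-/- against 11.2 and 11.4, while in eWAT it had 9.98 and 10.8 against 11.7 and 4.16, which overlapped.

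The Nr1d paralogs were set against each other in the same way. For each Nr1d2 read there were 14.4 and 7.58 Nr1d1 reads in the liver libraries labelled Crtc1-/- against 29.0 and 15.8 in liver labelled Crtc1+/+. In eWAT there were 57.5 and 20.2 against 6.21 and 1.66. The Crtc1-/- ratios were the lower in liver and the higher in eWAT, without overlap in either.

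**Figure D4:**
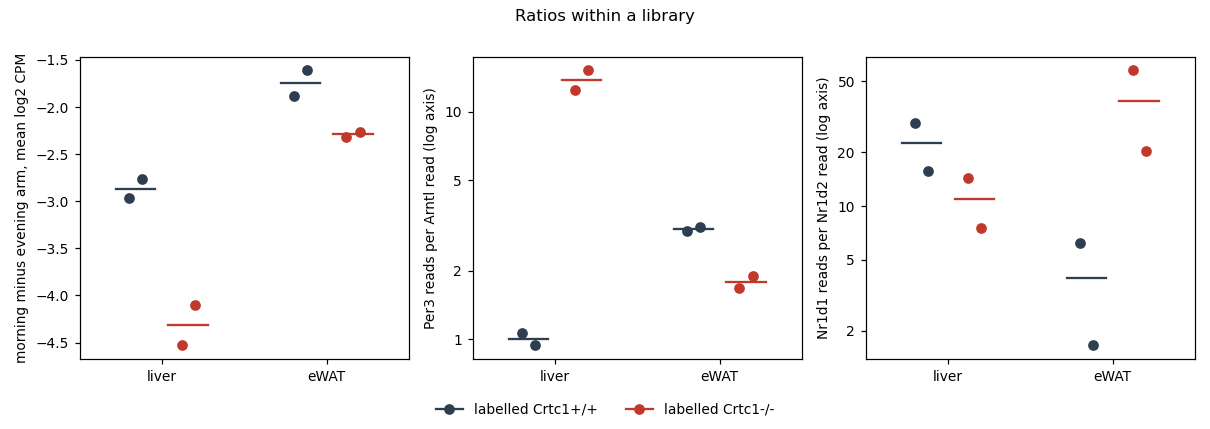
Values formed within each library, which do not depend on scaling between libraries. The panels give the morning minus the evening arm in mean log2 CPM, the Per3 reads per Arntl read and the Nr1d1 reads per Nr1d2 read, the latter 2 on log axes, with 1 point per library and a bar at the mean of 2. The arm difference is lower in Crtc1-/- in both tissues, while the ratios change order between liver and eWAT.

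Per transcript length, as FPKM, Dbp and Nr1d1 had the highest levels of the clock genes in each group. In liver labelled Crtc1+/+, Nr1d1 (31.4 ± 0.806 FPKM, SD, n = 2) and Dbp (28.4 ± 7.91) did not differ beyond their spread, and Per1 (7.66 ± 0.120) and Per2 (3.18 ± 0.488) followed. Cry1, Arntl, Nr1d2, Clock and Per3 came next, between 1.92 and 0.555 FPKM, each overlapping the next in order. Npas2 was last at 0.0600 FPKM.

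In liver labelled Crtc1-/- the order changed at the top and the bottom. Dbp led at 108 ± 41.8 FPKM, above Nr1d1 at 32.1 ± 15.2 FPKM. Arntl lay at 0.285 ± 0.0636 FPKM, below Clock and above Npas2 only. Per3 at 2 ± 0.841 FPKM overlapped Cry1, the next in order.

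In eWAT labelled Crtc1+/+, Dbp led at 37.7 ± 16.3 FPKM, above Nr1d1 at 22.0 ± 5.52 and Per1 at 12.3 ± 0.651 FPKM. Cry1, Nr1d2, Per3, Arntl, Per2 and Clock lay between 5.62 and 1.70 FPKM, each overlapping the next, and Npas2 was at 1.06 FPKM. In eWAT labelled Crtc1-/- the lead passed to Nr1d1 at 96.7 ± 19.2 FPKM, with Dbp at 44.3 ± 0.354 and Per1 at 29.5 ± 12.0 FPKM below it. The rest lay between 3.49 FPKM for Per2 and 1.29 FPKM for Clock.

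Set against liver within a genotype, in the fit of all 8 libraries, eWAT differed in 3 of 9 genes for each genotype at an adjusted p under 0.05, beside 54.9% of genes for Crtc1+/+ and 27.8% for Crtc1-/-. Npas2 was left out of this count, because its liver reads lay near the floor and it passed the filter through eWAT alone. The median over all genes depended strongly on scaling here, at 0.61 for Crtc1+/+ and 0.20 for Crtc1-/- with TMM and at 2 and 1.33 with library-size scaling. Within Crtc1+/+, eWAT was higher in Per3 (log2 difference 1.31), which came out below 0 with limma on log2(FPKM + 0.1) (-0.03). It was lower in Per2 (-1.99) and Nr1d1 (-1.92). With library-size scaling these were -0.59 and -0.51, and both calls were lost (edgeR adjusted p = 0.211 and 0.273). Within Crtc1-/-, eWAT was higher in Arntl (1.75) and lower in Per2 (-1.57) and Dbp (-2.41), with the same signs under library-size scaling and under limma. Arntl lost its call in both limma fits, at 0.41 and 0.83 (limma adjusted p = 0.191 and 0.147). Per2 lost its call with library-size scaling, at -0.50 (edgeR adjusted p = 0.312), and Dbp kept its call in all 3. Nr1d1 was at -1.92 within Crtc1+/+ and at 0.46 within Crtc1-/-.

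Other genes of the pathway were taken from a list of 41, grouped by role, all of which were in the table. In liver 38 were tested, 25 higher and 13 lower in Crtc1-/-, and 4 passed the DEG threshold, beside 4.27% of all genes, with a median log2 fold change of 0.14. In eWAT 39 were tested, 27 higher and 12 lower, and 5 passed, beside 15.9% of all genes, with a median of 0.37. None had an adjusted p under 0.05 by edgeR in liver, where 7 had an unadjusted p under 0.05, beside 17.3% of all genes. In eWAT 4 had an adjusted p under 0.05, beside 12.2%, and 15 an unadjusted p under 0.05, beside 33.3%. Apart from the count past the DEG threshold in liver, these shares lay near those of all genes.

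Of the regulators of Arntl transcription, Rora, an activator that acts on the sites NR1D1 represses, was at 11.5 and 13.1 CPM in the liver libraries labelled Crtc1-/- against 4.42 and 5.20 CPM. The Crtc1-/- libraries lay above the Crtc1+/+ pair, with a log2 fold change of 1.35 (SE 0.29, edgeR adjusted p = 0.121). In eWAT, where the groups also did not overlap, it was 0.82 (SE 0.45, edgeR adjusted p = 0.255).

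Nfil3, the repressor that competes with DBP at D-boxes, was at 6.66 and 12.3 CPM in the liver libraries labelled Crtc1-/- against 21.3 and 24.6 CPM. It was lower without overlap, with a log2 fold change of -1.28 (SE 0.33, edgeR adjusted p = 0.149). In eWAT it was at 21.2 and 15.6 CPM against 9.49 and 6.69 CPM, higher without overlap, with a log2 fold change of 1.18 (SE 0.41, edgeR adjusted p = 0.123). The difference between tissues was 2.37 on the log2 scale (SE 0.49, edgeR adjusted p = 0.0368). Cry2 and Tspan4 were the only other genes of the list with an adjusted p under 0.05 in that test, beside 6.94% of all genes. In liver the log2 fold change of Nfil3 had the opposite sign to those of Per3 and Dbp, and in eWAT, where none of these genes passed the DEG threshold, the opposite sign to that of Per3 and the same sign as that of Dbp. The related activators Tef and Hlf did not pass the DEG threshold in either tissue.

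Of the paralogs and repressors, Cry2, the partner repressor of Cry1, rose in eWAT. It was at 62.2 and 51.8 CPM in the eWAT libraries labelled Crtc1-/- against 20.6 and 22.0 CPM, with a log2 fold change of 1.42 (SE 0.29, edgeR adjusted p = 0.0431). Cry2 did not pass the DEG threshold in eWAT with library-size scaling or with the replicate block. In liver it was at 15.7 and 13.6 CPM against 17.9 and 20.2 CPM, and the difference between tissues was 1.71 (SE 0.28, edgeR adjusted p = 0.0178). Bhlhe41, an E-box repressor, fell in eWAT, from 80.5 and 111 CPM in Crtc1+/+ to 13.3 and 4.31 CPM in Crtc1-/-, with a log2 fold change of -3.44 (SE 0.63, edgeR adjusted p = 0.0353). It did not pass the filter on low counts in liver. None of the modifiers of PER and CRY and none of the cAMP and light inputs passed the DEG threshold in either tissue.

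Crebbp, a cofactor of CREB and of the clock activators, was at 15.8 and 29.2 CPM in the liver libraries labelled Crtc1-/- against 9.09 and 8.76 CPM, higher without overlap. Its log2 fold change was 1.33 (SE 0.33, edgeR adjusted p = 0.137). Nampt, the rate-limiting enzyme of NAD salvage and a clock output, was at 19.3 and 25.7 CPM against 8.73 and 13.6 CPM, with a log2 fold change of 1.01 (SE 0.31, edgeR adjusted p = 0.187). Neither gene passed the DEG threshold in eWAT.

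Of the 11 outputs tested in eWAT, 3 passed the DEG threshold, beside 15.9% of all genes. They were 3 of the 5 pathway genes past it there. Tspan4, a membrane protein of the tetraspanin family, was at 166 and 138 CPM against 31.1 and 19.03 CPM and rose by a log2 fold change of 2.60 (SE 0.37, edgeR adjusted p = 0.0231). The counts of Tspan4, like those of Nr1d1 and Dbp, were not whole numbers, and whether its reads are shared was not tested. Por, the electron donor of the cytochrome P450 enzymes, was at 523 and 885 CPM against 142 and 125 CPM and rose by 2.40 (SE 0.42, edgeR adjusted p = 0.0327). Alas1, the first enzyme of haem synthesis, was at 253 and 754 CPM against 91.6 and 76.1 CPM, with a log2 fold change of 2.59 (SE 0.61, edgeR adjusted p = 0.0584). Por and Alas1 were highest in the eWAT library with hepatocyte markers, and in liver they lay between 796 and 1003 CPM and between 874 and 1267 CPM. Without that library Por, Alas1, Bhlhe41, Cry2 and Tspan4 still passed the DEG threshold, and Hlf passed beside them. Without Crtc1-/- replicate 1 Cry2 did not pass and Gys2 did, without Crtc1+/+ replicate 1 only Bhlhe40 and Tspan4 passed, and without Crtc1+/+ replicate 2 none of the pathway genes did.

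**Figure D5:**
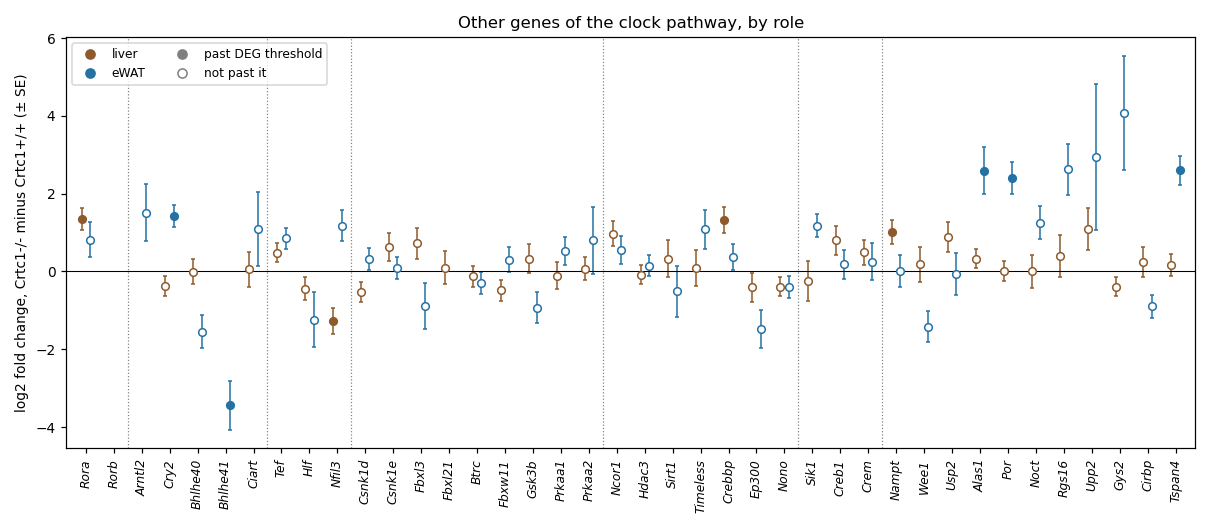
Log2 fold change of the other clock pathway genes, Crtc1-/- minus Crtc1+/+, from edgeR in liver and eWAT, with bars of ± 1 standard error and dotted lines between roles. Filled points passed the DEG threshold. A gene with no point in a tissue did not pass the filter on low counts there. Nfil3 lies at -1.28 in liver and at 1.18 in eWAT.

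Patterns over the 8 libraries, centred within each tissue, were compared as Pearson's r of log2 CPM, given as a description without a test. Among the clock genes, Arntl and Dbp had r = -0.86, Nr1d1 and Per1 had r = 0.83, Nr1d2 and Per3 had r = 0.76 and Nr1d1 and Nr1d2 had r = -0.54. Of 11577 genes that passed the filter in both tissues, those most like Arntl were Rbbp5 (r = 0.998), Rprd1b (0.989), Ep400 (0.979), Zw10 (0.978) and G3bp1 (0.964). Most like Dbp were Fhit (r = 0.994), the metallothionein genes Mt2 (0.969) and Mt1 (0.943), Plekha4 (0.934) and Oxld1 (0.933). Mt2 had a log2 fold change of 2.75 in liver and 0.60 in eWAT, beside 1.88 and 0.53 for Dbp. All these values share their libraries, depth and tissue composition.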

How the data were processed

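Libraries were sequenced at BGI. For each of 19348 genes the authors deposited an estimated count, not normalized, and an FPKM value, which allows for transcript length and depth. The submitters' processing notes name HISAT, Bowtie2 and GRCm38.p6, and the counting tool, its version, annotation and strand setting are not given in the sources used here. All 8 libraries were used, grouped and numbered by their labels, and no column of another series was present (0).

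The estimated counts were rounded, filtered by filterByExpr and scaled by TMM within a tissue, and genotypes were compared by the quasi-likelihood test of edgeR 4.0.16 in R 4.3.3, adjusted by Benjamini-Hochberg over every gene tested. A tissue by genotype interaction was fitted over all 8 libraries. The DEG threshold is the one in the study's methods, whose limma procedure served as an alternative (limma 3.58.1) because counts were deposited. CPM use TMM-scaled totals of the tissue, and log2 CPM a prior count of 2. Standard errors come from the log2 fold change over the root of F. FPKM served for levels between genes. With 2 against 2 libraries an exact two-sided permutation test cannot give a p under 0.333. Floors cover counting error only.

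The members and lists were chosen with earlier results of these data known. Genes named are all 10 members, pathway genes past the DEG threshold (up to 10 per tissue by smallest p), the 5 genes most like Arntl and like Dbp, Crtc1, Thra and the most abundant gene of each marker list. Genes named outside this rule, Sphk2, Tef and Hlf among them, and the ratios of reads were chosen after values were seen. The values of 1 pathway gene are not reported here, although the counts over the list include it. Positions are from GENCODE on GRCm38, and promoters from RefSeq on GRCm38.p6. The alternatives were DESeq2 1.42.0, limma on quantile-normalized log2(FPKM + 1) and log2(FPKM + 0.1), upper-quartile and library-size scaling, no filter, a mean count of at least 50, a joint fit of both tissues, a replicate block and each library left out. The test scripts were tested on simulated data. Plots used Python 3.11.15 (pandas 2.3.3, matplotlib 3.10.9).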

Additional observations from a re-analysis of the deposited data

Results flagged for a closer look

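By edgeR, the genotype difference of Per3 differed between tissues in a test of the difference itself, as did that of 6.94% of all genes. The log2 fold change in eWAT minus that in liver was -2.52 (SE 0.56, edgeR adjusted p = 0.0452), from 1.67 in liver and -0.79 in eWAT. Its value ranged from -2.86 to -2.06 when a library was left out, with the call lost in 6 of those 8 fits. With limma it was -1.03 on log2(FPKM + 1) (adjusted p = 0.126) and -1.57 on log2(FPKM + 0.1) (adjusted p = 0.138), without a call. With Npas2 left out, DESeq2 called Nr1d1, Per1 and Per3, and both limma fits called Nr1d1 and Arntl.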

How the results depend on the processing

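Among settings other than leaving out a library, 66 counts and arm differences stayed within 1.5 times or 1 SD and 18 did not, and 215 gene values kept their direction and side of the threshold, 10 gained a call, 6 lost one and 18 turned. For each change below the cause was not tested. In liver, members with an adjusted p under 0.05 went from 0 to 3 with DESeq2, 3 without a filter and 1 with the replicate block. Over all genes such calls also rose, from 10 of 11707 to 311 with DESeq2, 301 of 15896 without a filter and 82 with the block. Liver members past the DEG threshold fell to 1 with limma on log2(FPKM + 1), and liver pathway genes to 0 there and to 1 with log2(FPKM + 0.1). Over all liver genes 158 and 393 passed in these fits, against 500 in the main fit. In eWAT, members with an adjusted p under 0.05 were 1 (Nr1d1) with either limma fit, upper-quartile or library-size scaling and 0 with the replicate block, which called 0 of all 15391 genes. Library-size scaling left 1 eWAT member past the DEG threshold, beside 2320 of 15391 genes. DESeq2 gave 10 of the 39 pathway genes tested in eWAT, against 5 in the main fit. Over all 15391 genes the number rose likewise, from 2448 to 4039. Members called for the interaction, with Npas2 left out, were Nr1d1, Per1 and Per3 with DESeq2. They were Nr1d1 and Arntl, without Per3, with either limma fit, and Nr1d1 and Per3 at a mean count of at least 50. The liver arm difference was -2.80 with Arntl alone.

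Some directions turned under these settings. Liver Clock was at -0.05 and -0.12 in the limma fits with pseudocounts 1 and 0.1. Liver Per1 was at 0.07 and 0.08 in those, 0.08 with upper-quartile scaling, 0.05 with library-size scaling and 0.07 at a mean count of at least 50, where liver Nr1d1 was at 0.05 (0.06 and 0.04 with these scalings). In eWAT, Arntl was at 0.31 and 0.45 in the limma fits, 0.04 without a filter and 0.01 with the replicate block, and Clock at 0.34 and 0.60 in the limma fits. The interaction of Clock was 0.31 and 0.72 in the limma fits.

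With a library left out, members past the DEG threshold numbered 1 to 4 in liver and 0 to 2 in eWAT, members with an adjusted p under 0.05 0 to 4 and 0 to 2, pathway genes 0 to 6 in each tissue, members called for the interaction 0 to 3, and for eWAT against liver 2 to 5 within each genotype. The range for eWAT against liver counts Npas2 wherever it was called, and with Npas2 the main fit gave 4 within each genotype. The Results left Npas2 out of that count, so this range does not give the spread of the count stated there. The arm difference ranged from -1.66 to -1.24 in liver and from -0.68 to -0.41 in eWAT. Log2 fold changes that turned ranged in liver from -0.12 to 0.40 for Clock, -0.78 to 0.52 for Cry1, -0.33 to 0.26 for Per1, -0.10 to 1.04 for Per2 and -0.61 to 0.41 for Nr1d1, in eWAT from -0.28 to 0.35 for Arntl and -0.52 to 0.51 for Clock, and for the interaction from -1.13 to 0.17 for Cry1, -0.02 to 1.08 for Per2 and -0.70 to 0.27 for Clock. A fit that left 1 library in a group assumed that it varied like the others.

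The replicate numbers were not taken to pair libraries, since same-numbered libraries correlated at 0.07 in liver and 0.02 in eWAT, and at 0.27 (Crtc1+/+) and 0 (Crtc1-/-) between the tissues. In the block fits Per3 alone of the members was called in liver, among 82 of 11707 genes, and for the interaction. The eWAT block fit called 0 of 15391 genes, so it cannot decide about the members. Npas2 and Arntl rested on few reads in liver, only 2 libraries stood in each group, and eWAT genotype differences are tied to epididymis markers.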
